A study of Mus musculus with 231 samples.

Results

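The miR-23, miR-24 and miR-27 clusters are a pair of copies of one short gene array. The 7 mature miRNAs described here were found by name: mmu-miR-23a-3p, mmu-miR-23b-3p, mmu-miR-24-3p, mmu-miR-27a-3p, mmu-miR-27b-3p, mmu-miR-27a-5p and mmu-miR-27b-5p, written below without the species prefix. All 7 were present among the 1863 miRNAs of the training count table, the 1895 of the training CPM table and the 1817 of the validation CPM table, where CPM are counts scaled to 1000000 per library after correction of the library sizes. Small RNA of PBMC, the mononuclear cells of peripheral blood, was sequenced from C57BL/6 mice. CM mice carried a conditional Cbfb-MYH11 knock-in allele and Mx1-Cre, and poly(I:C), given as 7 doses of 14 mg/kg at 6 to 8 weeks of age, switched the fusion gene on. The fusion models inv(16) of human acute myeloid leukemia, and Mx1-Cre is induced by interferon in many cell types besides blood cells. Ctrl mice were littermates that received the same injections, with the genotype codes CW, HW or WT against CHW in every CM mouse. The codes are not explained in the labels, and Ctrl mice may have carried the uninduced allele.

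The training cohort held 7 CM mice with 53 libraries and 7 Ctrl mice with 76 libraries, from month 0 (before induction) to month 10, with 1792809 to 7958411 counts per library. The CM mice were 4 females and 3 males and the Ctrl mice 2 females and 5 males, so that sex was unequal between the arms. For validation, 60 libraries of 10 CM mice (5 females, 5 males) and 42 of 6 Ctrl mice (3 females, 3 males) were sequenced at points 1 to 7 and L, a label that is not explained. Only the 12 libraries of validation point 5 were deep, with 1645456 to 5445215 reads, whereas the other 90 held 1744 to 76906. CM series ended between months 4 and 10, and the time T6p5 of CM mice 3334 and 3336 was read as month 6.5. Running numbers in the library titles of mouse 3334 (CM) and mouse 3335 (Ctrl) broke between months 5 and 6, so results that rest on these mice are given without them where the call changed. PBMC markers were present in every group. The summed level of 4 lymphocyte miRNAs (miR-150 and miR-342) had a median of 55984 CPM in CM and 55953 CPM in Ctrl at month 0, and that of miR-223 had medians of 9138 and 11152 CPM. Erythroid miRNAs were also present, and 7 of them summed to medians of 62239 CPM in CM and 61733 CPM in Ctrl at month 0. In bulk samples, fewer cells of a type and less of a miRNA per cell cannot be told apart.

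miRNAs are made as hairpins whose arms give a 5p and a 3p strand, and a mature strand directs silencing mainly by pairing of its seed, bases 2 to 8, with target mRNAs. In mammals miR-23a, miR-27a and miR-24-2 are transcribed together, and miR-23b, miR-27b and miR-24-1 form the copy cluster. In blood formation the miR-23a cluster is known to favour myeloid over B-cell development, and miR-27 to target Runx1, whose protein binds DNA together with Cbfb. The miR-24-3p strand is made identically by both clusters, so that its level is a sum. In the RefSeq annotation of GRCm38.p6, the a cluster holds 3 hairpins within 404 bases of chromosome 8 (84208518 to 84208921, plus strand) and the b cluster holds 3 hairpins within 792 bases of chromosome 13 (63300484 to 63301275, plus strand). The deposited files state no coordinates. RefSeq gave mature sequences for 6 of the 7 members, and these are shown because some of the copies differ at few bases. Sequences run 5′ to 3′, with the seed in capitals.

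The 3p strands of miR-27a (chr8:84208727-84208747) and miR-27b (chr13:63300760-63300780) shared the seed UCACAGU.
miR-27a-3p: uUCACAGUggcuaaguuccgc
miR-27b-3p: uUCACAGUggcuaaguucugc
They were both 21 bases long and differed at 1 base, C19U, with positions counted from 1 at the 5′ end of miR-27a-3p.

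The 3p strand of miR-23a lies at chr8:84208563-84208583. Its copy is miR-23b-3p.
miR-23a-3p: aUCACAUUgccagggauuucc
The miR-24-3p strand lies at chr8:84208875-84208896 and chr13:63301251-63301272, with 1 sequence at both places.
miR-24-3p: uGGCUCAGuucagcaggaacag

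The 5p strands of miR-27a (chr8:84208685-84208706) and miR-27b (chr13:63300718-63300739) had unequal seeds.
miR-27a-5p: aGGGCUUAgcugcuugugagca
miR-27b-5p: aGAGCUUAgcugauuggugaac
They were both 22 bases long and differed at 8 positions, of which G3A lies in the seed.

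The members made up a median of 3.13% of all training counts (lowest 1.04%, highest 5.20%). Levels below are CPM from the counts after TMM scaling unless the deposited CPM is named, and since mature miRNAs are of nearly equal length they are compared without a length correction. Over all training libraries miR-23a-3p had a mean of 11060 ± 2592 CPM (SD) and miR-27a-3p of 10789 ± 3206 CPM, which differed by less than either spread. miR-24-3p followed with 4531 ± 2624 CPM, then miR-27b-3p with 2624 ± 972 CPM and miR-23b-3p with 1388 ± 396 CPM. The 5p strands were the scarcest, with 120.9 ± 153 CPM for miR-27a-5p and 20.8 ± 8.70 CPM for miR-27b-5p. Ranges were unequal. miR-27a-5p ran from 15.5 to 1027 CPM, 66.5 times its lowest value, and miR-24-3p from 299 to 11272 CPM, 37.8 times. The other 5 members spanned 4.95 to 7.61 times.

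**Figure D1:**
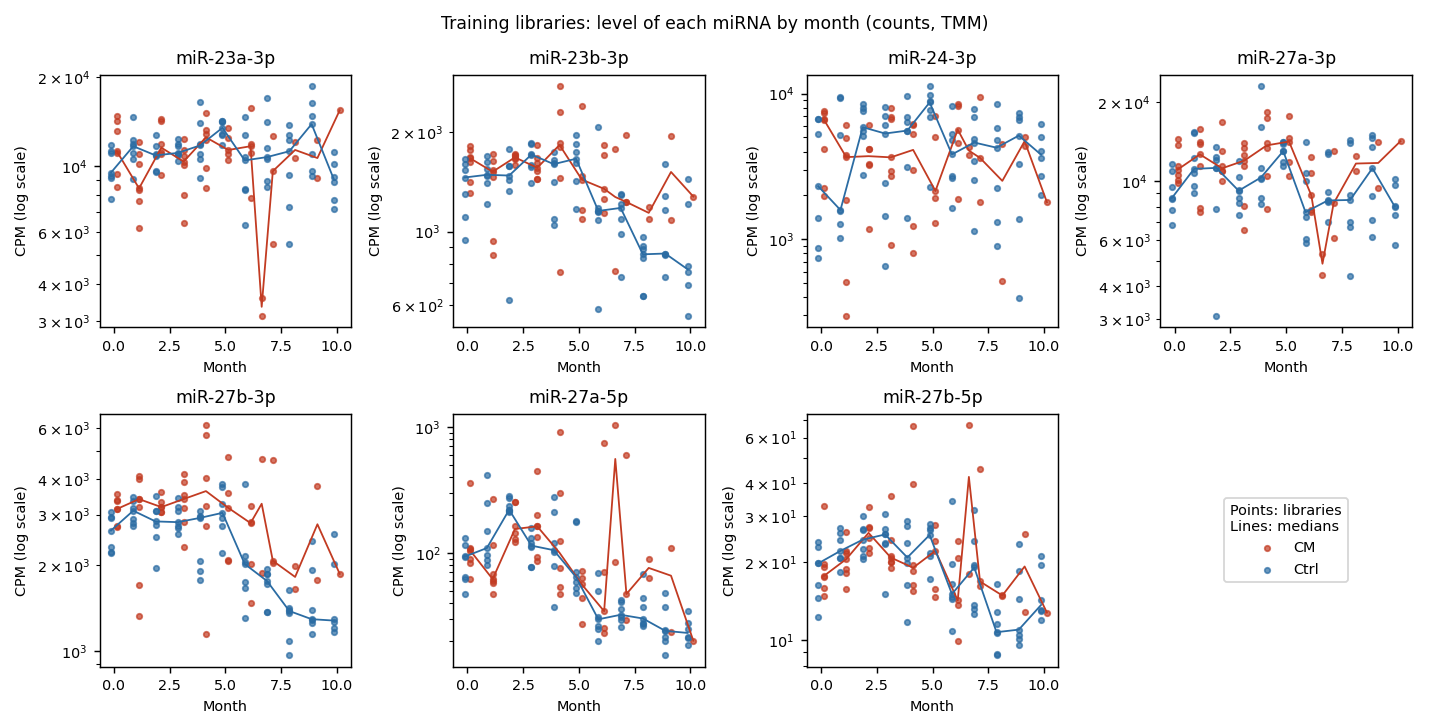
CPM of each of the 7 miRNAs (log scale) against month in the 53 CM (red) and 76 Ctrl (blue) training libraries, with a line through the medians of each arm. miR-27a-5p spans 15.5 to 1027 CPM, and its highest values are in CM libraries between months 4 and 7.

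The training count table and the training CPM table gave unequal accounts of some members in the same libraries. For miR-27a-5p, values on the log2(CPM + 1) scale had a Pearson's r of 0.99 across all training libraries. It was 0.92 for miR-27a-3p, 0.91 for miR-23a-3p, 0.90 for miR-27b-5p and 0.89 for miR-27b-3p. For miR-24-3p it was 0.15 and for miR-23b-3p 0.034. Libraries of 1 mouse are repeats, so these values are descriptions. Among 335 miRNAs with a mean of 10 CPM or more the median r was 0.93, and only 2 miRNAs lay below miR-23b-3p and 6 below miR-24-3p. The mean of miR-24-3p was 4531 CPM in the counts and 8814 CPM as deposited, where its libraries lay between 4283 and 14313 CPM. The counts of miR-24-3p were between 3.41% and 105.8% of the reads recovered from the deposited CPM, with a median of 63.8%. miR-23b-3p counts were a median of 30.0% of the recovered reads (10.3% to 225.0%), whereas miR-27a-3p counts stayed between 101.2% and 105.3%. Which table holds the better value of miR-24-3p and miR-23b-3p was not tested. Many of their estimates had unequal signs in the tables, and the main ones are given from both.

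**Figure D2:**
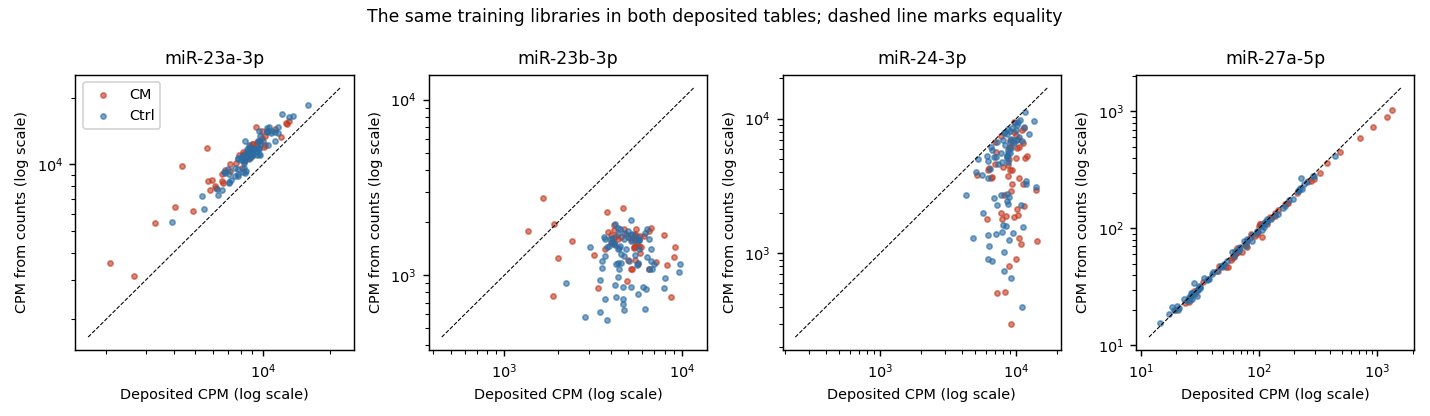
CPM from the counts against deposited CPM for 4 members in the training libraries (both axes log scale; CM red, Ctrl blue; dashed line, equal values). miR-27a-5p lies along the line (r = 0.99), whereas miR-23b-3p (r = 0.034) and miR-24-3p (r = 0.15) do not.

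The share of the b copy depended on the table in the same way. In the counts, miR-23b-3p made up 11.5 ± 4.05% of miR-23a-3p and miR-23b-3p together (SD over all training libraries), against 36.8 ± 3.22% in the deposited CPM, and the ranges of 4.93% to 33.3% and 26.1% to 42.7% overlapped. For the miR-27 3p strands, miR-27b-3p made up 20.1 ± 7.12% in the counts and 28.5 ± 6.77% as deposited. For the 5p strands, miR-27b-5p made up 22.2 ± 10.6% and 16.9 ± 10.4%. In both tables the a copy was the more abundant copy on average for each pair.

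**Figure D3:**
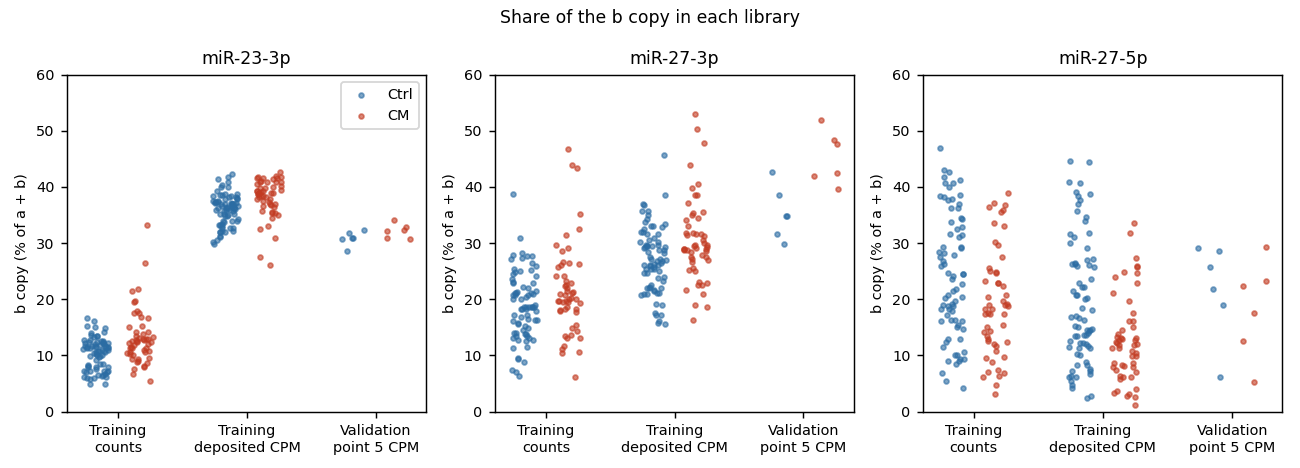
The b copy as a percent of a and b together in each library, for miR-23-3p, miR-27-3p and miR-27-5p, in the training counts, the training deposited CPM and validation point 5 (CM red, Ctrl blue). The miR-23-3p share averages 11.5% in the counts and 36.8% as deposited, and at validation point 5 the miR-27-3p share is higher in CM (39.6% to 51.8%) than in most Ctrl libraries (29.9% to 42.7%).

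The first comparison asked whether the members differed between CM and Ctrl mice at each month. By edgeR's quasi-likelihood test, called at an adjusted p (Benjamini-Hochberg, over all miRNAs tested) under 0.05, 0 of 7 members were called at any month from 0 to 6. Among all miRNAs tested, 0.209% were called before induction, 27.5% after 1 month, 13.5% after 2, 22% after 3, 0.837% after 4, and 0% after 5 and after 6, where 21.6% and 6.98% had an unadjusted p under 0.05. Of the 7 erythroid miRNAs, the same test called 7 higher in CM at month 1, 4 at month 2 and 6 at month 3. At months 0, 4, 5 and 6 it called 0, and the part of this difference in the member estimates was not tested. Over the 49 tests of members, 8 had an unadjusted p under 0.05, and DESeq2 called 0 members with 6 such p-values. A p that misses the threshold does not show that the arms were alike, and the precision differed between members. The median standard error of the log2 fold change over the 7 months was 0.15 for miR-23a-3p, 0.18 for miR-23b-3p and miR-27b-5p, 0.20 for miR-27a-3p and miR-27b-3p, 0.39 for miR-27a-5p and 0.50 for miR-24-3p.

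The 3p strands of miR-23a and miR-27a had small estimates and were not called. miR-23a-3p, the 3p strand of the first hairpin of the a cluster, had log2 fold changes between -0.37 at month 1 and 0.22 at month 0. At month 1 it ran from 6185 to 12075 CPM with a median of 8410 in 7 CM libraries and from 9010 to 14681 with a median of 11671 in 7 Ctrl libraries, with overlap (adjusted p = 0.11). miR-27a-3p had log2 fold changes between -0.03 and 0.32, above 0 in 6 of 7 months. Its value of 0.32 ± 0.14 (SE) belonged to month 0, before induction, where CM libraries ran from 9881 to 14495 CPM and Ctrl libraries from 6833 to 11598 CPM (adjusted p = 0.33).

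The 3p strands of the b cluster varied by a like amount. miR-23b-3p had log2 fold changes between -0.14 and 0.40, and miR-27b-3p between -0.06 and 0.68. miR-23b-3p lay above 0 in 4 of 7 months in the counts, and its sign at months 1, 4 and 5 was the opposite on the recovered reads of the deposited CPM (0.14, -0.099 and 0.16). The highest value of miR-27b-3p was at month 4, where 6 CM libraries ran from 1150 to 6152 CPM with a median of 3623, and 7 Ctrl libraries from 1765 to 3080 CPM with a median of 2921. The CM libraries lay on both sides of Ctrl, and the difference did not pass (0.68 ± 0.34, adjusted p = 0.31). With the a and b counts added together, 0.30 ± 0.15 was found for the miR-27 3p strands at month 3 (adjusted p = 0.17), and the same sum from the recovered reads of the deposited CPM gave 0.37 ± 0.13 (adjusted p = 0.042, beside 27.8% of all miRNAs called on those reads). The summed miR-23 3p strands had adjusted p-values of 0.14 or more in the counts.

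miR-24-3p was lowest in CM relative to Ctrl at month 5. In the counts the 5 CM libraries held 1303, 1926, 2145, 5071 and 7057 CPM, and the 7 Ctrl libraries ran from 2277 to 11272 CPM with a median of 8696. The fold change was -1.16 ± 0.45 on the log2 scale (adjusted p = 0.18). In the deposited CPM the same 5 CM libraries lay between 10079 and 11552 CPM and the Ctrl libraries between 10075 and 12460.5 CPM, so that each CM library lay within the Ctrl range. At month 2 miR-24-3p had -0.75 ± 0.33 in the counts (adjusted p = 0.14) and 0.23 on the recovered reads, and at month 4 it had -0.54 ± 0.50 (adjusted p = 0.60) and 0.17.

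The 5p strand of miR-27a changed sides between months. At month 1 the CM libraries ran from 47.3 to 266 CPM with a median of 61.9, 5 of 7 below every Ctrl library, and Ctrl ran from 80.4 to 417 CPM with a median of 109.1 (log2 fold change -0.85 ± 0.47, adjusted p = 0.20). Without mouse 3370 this was -1.38 (adjusted p = 0.022). At month 3 CM ran from 85.5 to 446 CPM with a median of 162, 4 of 7 above every Ctrl library, and Ctrl ran from 77.4 to 157 CPM (0.73 ± 0.30, adjusted p = 0.092). Without mouse 3334 it was 0.85 (adjusted p = 0.0497), and with the G number of the titles in the fit, which the labels do not explain, it was -0.54 ± 0.76. At month 6 the 5 CM libraries held 23.1, 25.5, 34.5, 69.9 and 743 CPM, against a Ctrl range of 20.1 to 69.1 CPM (2.40 ± 0.83, adjusted p = 0.44). Without mouse 3341 the value was 0.014, and with the G number in the fit it was -0.29 ± 0.62. The 743 CPM belonged to mouse 3341, 1 other CM library lay just above the highest Ctrl library, and 3 lay within the Ctrl range. miR-27b-5p had log2 fold changes between -0.19 and 0.56, and its lowest adjusted p over the 7 months was 0.37.

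**Figure D4:**
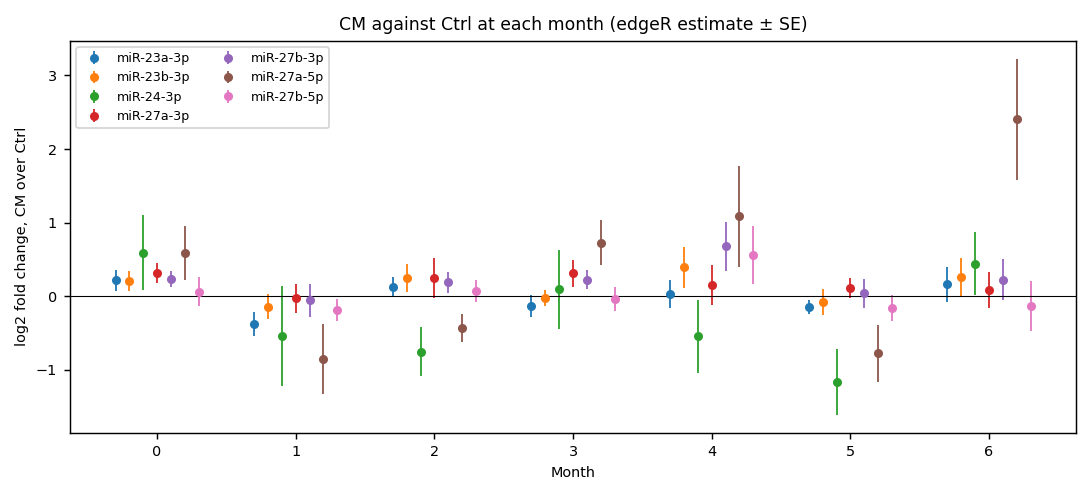
Log2 fold change of CM over Ctrl at months 0 to 6 for each member (points, edgeR estimate; bars, SE). The estimates lie between -0.37 and 0.68 for the 3p strands other than miR-24-3p, and miR-27a-5p runs from -0.85 at month 1 to 2.40 at month 6.

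Means over months 1 to 6 of each mouse were then compared between 7 CM and 7 Ctrl mice by a two-sided exact permutation test, which could not give a p below 0.00058. It called 0 of 7 members, beside 41.4% of the 331 miRNAs with a mean of 10 CPM or more. miR-24-3p had the lowest p among the members. Its mean log2(CPM + 1) was 11.6 ± 0.46 in CM and 12.1 ± 0.35 in Ctrl mice (SD, n = 7 each), a difference of -0.51 with p = 0.041 and adjusted p = 0.089 in the exact permutation test, and 5 of 7 CM mice lay below every Ctrl mouse. In the deposited CPM the difference was 0.11 in the other direction (adjusted p = 0.067). miR-27a-3p was higher in CM by 0.15 (adjusted p = 0.13) and miR-27b-3p by 0.19 (adjusted p = 0.37), against 0.18 and 0.29 in the deposited CPM (adjusted p = 0.065 and 0.063). Without mouse 3341 miR-24-3p passed at -0.64 (adjusted p = 0.021), and without mouse 3350 miR-27a-3p passed at 0.18 (adjusted p = 0.045). Within the 7 G numbers miR-27a-3p and miR-27a-5p were each higher in CM in 4 of 7, miR-23b-3p and miR-27b-3p in 5 of 7, and miR-24-3p and miR-23a-3p in 2 of 7.

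The balance of the copies was compared in the same mice as the mean log2 ratio of counts, with p-values adjusted over 5 ratios. In the counts 0 of 5 ratios were called. The miR-23a-3p to miR-23b-3p ratio was 2.78 ± 0.36 in CM and 3.00 ± 0.15 in Ctrl mice (exact permutation test, adjusted p = 0.45), and the miR-27a-3p to miR-27b-3p ratio was 1.92 ± 0.44 and 1.96 ± 0.20 (adjusted p = 0.85). In the deposited CPM 2 of 5 ratios were called. The same test called 42.2% of the 339 miRNAs whose mouse means were compared there. That is a share of single levels adjusted over 339 miRNAs, and a share over other ratios is not given. The miR-23a-3p to miR-23b-3p ratio there was 0.68 ± 0.092 in CM and 0.84 ± 0.052 in Ctrl mice, 0.16 lower in CM with 5 of 7 CM mice below every Ctrl mouse (exact permutation test, adjusted p = 0.0073). At month 0, before induction, it was 0.93 ± 0.15 in CM and 1.04 ± 0.16 in Ctrl mice. It was higher in CM at month 4 (0.67 against 0.64) and month 6 (0.81 against 0.76). The miR-27b-3p to miR-27b-5p ratio was 8.56 ± 0.12 in CM and 8.16 ± 0.23 in Ctrl mice, 0.40 higher in CM with 6 of 7 CM mice above every Ctrl mouse (adjusted p = 0.0073). It was 7.10 ± 0.19 and 6.94 ± 0.20 in the counts, with a difference of 0.16 in the same direction (adjusted p = 0.45) that was above 0 in 7 of 7 G numbers. At month 0 it was already higher in CM, at 7.35 ± 0.40 against 7.16 ± 0.18 in the counts and 8.62 ± 0.47 against 8.36 ± 0.29 in the deposited CPM.

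Changes within CM mice were followed to their last library, drawn at month 4 in mice 3338 and 3357, 6 in 3341, 6.5 in 3334, 7 in 3336, 9 in 3370 and 10 in 3368. miR-27a-5p, the minor strand of the miR-27a hairpin, held 20.1, 108.3, 298, 595, 743, 903 and 1027 CPM there, against 61.5 to 359 CPM at month 0. It was higher than at month 0 in 6 of 7 mice, and the exception was mouse 3368, with 20.1 against 108.2 CPM. By edgeR it rose by 2.24 ± 0.69 on the log2 scale (adjusted p = 0.018). With mouse as a block the value was 1.81 ± 0.74 and no longer passed (adjusted p = 0.083, beside 33% of all miRNAs called with the block). Leaving out mouse 3336, 3338 or 3341 also lost the call, at 2.06, 1.98 and 2.03 (adjusted p = 0.061, 0.067 and 0.060). Without mouse 3334, which held the 1027 CPM, the rise was 2.43 ± 0.68 by edgeR (adjusted p = 0.018).

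miR-27b-5p, the minor strand of the b copy, ran from 12.8 to 66.8 CPM with a median of 39.7 in the last CM libraries and from 14.8 to 32.7 CPM with a median of 17.7 at month 0. It rose by 1.24 ± 0.38 (adjusted p = 0.017, with mouse as a block 1.03 ± 0.35 and adjusted p = 0.047) in 6 of 7 mice. Without mouse 3334 it was 0.97 (adjusted p = 0.074) and without mouse 3336 it was 1.12 (adjusted p = 0.064). The background was high, since 39% of the miRNAs tested in this comparison were called, and 2 of 7 members were. miR-27b-3p had 0.60 ± 0.26 (adjusted p = 0.080) and 0.49 ± 0.18 on the recovered reads of the deposited CPM (adjusted p = 0.035, beside 45% of all miRNAs called on those reads), and without mouse 3368 it passed in the counts at 0.63 (adjusted p = 0.020). The other 3p strands had -0.27 for miR-23a-3p, -0.24 for miR-27a-3p, -0.29 for miR-24-3p and 0.39 for miR-23b-3p, with adjusted p-values of 0.16 or more, and on the recovered reads miR-23b-3p had -0.39 and miR-24-3p 0.081. At month 1, 0 of 7 members had changed from month 0 in CM mice (12.7% of all miRNAs called) and 0 of 7 in Ctrl mice (0.63% called), with 0 and 2 members at an unadjusted p under 0.05 and 0 called by DESeq2 in either.

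**Figure D5:**
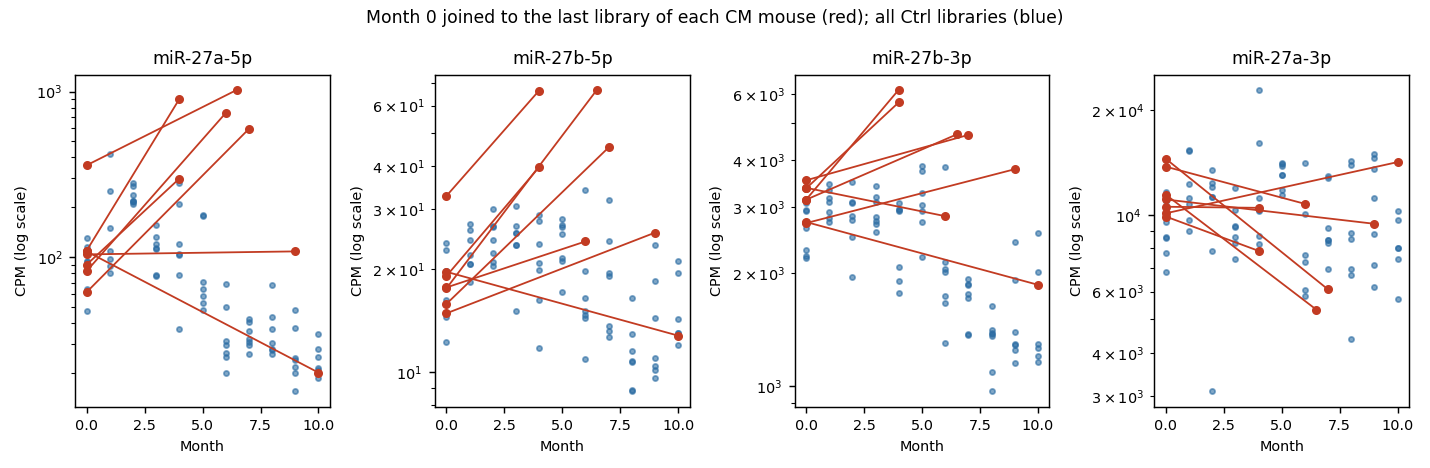
CPM (log scale) of 4 miR-27 strands at month 0 and at the last library of each of the 7 CM mice (red, joined), with all 76 Ctrl libraries (blue) by month. For miR-27a-5p, 5 of the 6 last libraries with Ctrl libraries of the same month lie above all of them. The share of all miRNAs that do so is not given.

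The level of miR-27a-5p fell in Ctrl mice. In the 7 Ctrl mice it went from 47.1 to 131.1 CPM at month 0 (median 93.2) to 20.1 to 69.1 CPM at month 6 (median 29.7). It fell by 1.24 ± 0.31 on the log2 scale (adjusted p = 0.011), the only member called in this comparison, in which 20.5% of all miRNAs were called. In the 6 Ctrl mice with a month 10 library, a comparison added after the data had been seen in which 22.8% were called, miR-27a-5p fell by 1.78 ± 0.25 (adjusted p = 0.00045) to between 18.5 and 34.3 CPM. miR-27b-3p fell by 0.67 ± 0.21 (adjusted p = 0.039), from a month 0 range of 2197 to 3073 CPM over all 7 Ctrl mice to 1162 to 2561 CPM, and lost its call without mouse 3339, 3340, 3342, 3346 or 3349 (-0.67 to -0.58, adjusted p = 0.071 to 0.14). miR-27a-3p, from the same hairpin as miR-27a-5p, had -0.08 ± 0.18 (adjusted p = 0.76), and miR-23a-3p had -0.07 ± 0.15 (adjusted p = 0.76). miR-23b-3p had -0.53 ± 0.24 in the counts (adjusted p = 0.12) and 0.34 ± 0.14 on the recovered reads (adjusted p = 0.084, beside 27.7% of all miRNAs called), so that its direction depended on the table, and without mouse 3335 it passed in the counts at -0.68 (adjusted p = 0.044). miR-24-3p had 0.17 ± 0.51 in the counts (adjusted p = 0.83) and -0.31 ± 0.13 on the recovered reads (adjusted p = 0.077). With limma-trend on the deposited CPM it was called lower at -0.41 ± 0.14 (adjusted p = 0.044), beside 24.5% of all miRNAs called in that fit.

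Straight-line slopes of log2(CPM + 1) over all months of each mouse described the same course. miR-27a-5p had a mean slope of -0.29 ± 0.045 per month in Ctrl mice (SD, n = 7) and fell in 7 of 7, as did miR-27b-3p (-0.12 ± 0.029), miR-27b-5p (-0.077 ± 0.026) and miR-23b-3p (-0.084 ± 0.032). miR-23a-3p and miR-27a-3p had slopes of -0.0026 and -0.019. Among 331 miRNAs 25.98% fell in every Ctrl mouse. With mouse and G number in the fit the Ctrl slope of miR-27a-5p was -0.30 and that of miR-27b-3p -0.12. In the deposited CPM miR-27b-3p and miR-27a-5p again fell in 7 of 7 Ctrl mice, at -0.091 and -0.29, whereas miR-23b-3p rose in 6 of 7 at 0.035. CM mice were divided for miR-27a-5p in the counts, with slopes of -0.15 in mouse 3334, -0.24 in 3368 and -0.19 in 3370. Slopes were 0.19 in mouse 3336, 0.34 in 3341, 0.51 in 3357 and 0.88 in 3338. CM slopes differed from Ctrl slopes for 4 of 7 members beside 30.8% of all miRNAs (exact permutation test), but CM series were shorter. Over months 0 to 4 alone 0 of 331 miRNAs were called, with 19 at an unadjusted p under 0.05. With any 1 of the 7 Ctrl mice left out, 0 of 331 miRNAs were called, with 130 or more at an unadjusted p under 0.05 and adjusted p-values of these 4 members from 0.060 to 0.088.

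The change to the last CM library was set against the change in Ctrl mice from month 0 to month 6 in one model. The difference was 3.45 ± 0.78 on the log2 scale for miR-27a-5p (adjusted p = 0.0073, with mouse as a block 3.09 ± 0.82 and adjusted p = 0.027), the only 1 of 7 members called, beside 14.8% of all miRNAs, or 10.5% with the block. Leaving out 1 mouse at a time, a check chosen after seeing the data, the difference ran from 3.17 to 3.62 with adjusted p-values from 0.00028 to 0.018. miR-27b-3p had 0.86 ± 0.34 (adjusted p = 0.070) in the counts and 0.87 ± 0.24 on the recovered reads (adjusted p = 0.011, beside 16.9% of all miRNAs called), and miR-27b-5p had 1.22 ± 0.46 (adjusted p = 0.065). Without mouse 3368 both passed, at 0.90 and 1.29 (adjusted p = 0.014 and 0.016). Without mouse 3335 miR-27b-3p passed at 1.04 (adjusted p = 0.019), and without mouse 3342 miR-27b-5p passed at 1.40 (adjusted p = 0.030). DESeq2 called miR-27a-5p, miR-27b-3p and miR-27b-5p, but the shares of all miRNAs given here are those of edgeR. miR-23b-3p had 0.55 ± 0.31 in the counts (adjusted p = 0.20) and -0.73 ± 0.41 on the recovered reads (adjusted p = 0.19). miR-24-3p had -0.63 ± 0.68 (adjusted p = 0.51) and 0.18 ± 0.28 (adjusted p = 0.64). The same test called 0 of 7 members at month 1, where 8.46% of all miRNAs were called, and 0 of 7 at month 3, where 2.33% were, with 2 and 0 members at an unadjusted p under 0.05 and none called by DESeq2.

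The last CM libraries were also placed beside Ctrl libraries of their own month, without a test. The share of all miRNAs that lay outside every Ctrl library is not given, here or for the months and mouse means above. These counts therefore do not show a trait particular to the members. Of the 6 last CM libraries with Ctrl libraries of the same month, miR-27a-5p was above every Ctrl library in 5 and within their range in mouse 3368. At month 4 mouse 3338 held 903 CPM and mouse 3357 held 298 CPM, against a Ctrl maximum of 280 CPM. At month 7 mouse 3336 held 595 CPM against a Ctrl maximum of 42.4 CPM. At month 9 mouse 3370 held 108.3 CPM against 47.6 CPM. In the counts, miR-23b-3p, miR-27b-3p and miR-27b-5p were above every Ctrl library of the month in 4 of 6, while miR-23a-3p and miR-27a-3p were above in 1 of 6 and below in 3 and 2 of 6. In the deposited CPM, miR-27a-5p and miR-27b-3p were above in 5 of 6 and miR-27b-5p in 2 of 6. miR-23b-3p was there below every Ctrl library of the month in 5 of 6, for example 1662 CPM in mouse 3338 against a Ctrl minimum of 3953 CPM at month 4, and above in 1. miR-24-3p was above in 1 and below in 2 of 6 in the counts, and above in 3 and below in 1 of 6 as deposited.

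Sums of marker miRNAs were compared for the same libraries, without a test. The erythroid sum of 7 miRNAs ran from 29344 to 83218 CPM with a median of 62441 in the last CM libraries, and from 40542 to 136377 CPM with a median of 62239 in CM mice at month 0. In Ctrl mice at month 6 it ran from 83445 to 341500 CPM, without overlap with the last CM libraries. The Ctrl range at month 7 (95238 to 197112 CPM) did not overlap with them either. Those at month 4 (56941 to 92628 CPM), month 9 (74624 to 127445 CPM) and month 10 (81217 to 178709 CPM) did. Of the 7 erythroid miRNAs, edgeR called 3 higher and 1 lower in the last CM libraries than at month 0, beside 39% of all miRNAs. The myeloid sum of the miR-223 strands ran from 2016 to 6308 CPM (median 4543) in the last CM libraries, from 5390 to 39990 CPM (median 9138) in CM mice at month 0 and from 3187 to 5269 CPM (median 4808) in Ctrl mice at month 6. These ranges overlapped, as did those of the lymphocyte sum, with 9572 to 58529 CPM (median 25498), 29799 to 69761 CPM (median 55984) and 27678 to 50484 CPM (median 32515) in the same order. In the last CM libraries against month 0, edgeR called 3 of 4 lymphocyte miRNAs and 1 of 2 miR-223 strands lower, and 0 higher. In Ctrl mice at month 6 against month 0 it called 1 of 4 and 2 of 2 lower, beside 20.5% of all miRNAs.

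The list of 4 endothelial and vessel-wall miRNAs summed to 942 to 7576 CPM (median 2363), against 515 to 931 CPM in CM mice at month 0, without overlap, and 429 to 1555 CPM in Ctrl mice at month 6. The list was then split by family, a choice made after the data had been seen. miR-126a-3p and miR-126a-5p, which are known from endothelium and also from hematopoietic stem and progenitor cells, summed to 324 to 7544 CPM (median 2305) in the last CM libraries. They summed to 157 to 260 CPM (median 192) in CM mice at month 0 and to 127.8 to 875 CPM (median 212) in Ctrl mice at month 6. miR-143-3p and miR-145a-5p, known from smooth muscle of the vessel wall, summed to 19.9 to 1587 CPM (median 73.3), against 274 to 746 CPM (median 469) and 301 to 1163 CPM (median 665). No marker on these lists was at 0 in all libraries. The part of these marker levels in the results above was not tested.

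Other strands of the same loci were followed as a list. Of the 4 further products of the clusters (miR-23a-5p, miR-23b-5p, miR-24-1-5p and miR-24-2-5p), 3 or 4 were tested in each comparison and 0 were called between CM and Ctrl at months 0 to 6. miR-23a-5p rose by 0.77 ± 0.17 in Ctrl mice from month 0 to month 10 (adjusted p = 0.0058). On the strand opposite miR-24, 2 of 3 miR-3074 products could be tested in the training counts. miR-3074-1-3p was higher in CM at month 1 by 0.81 ± 0.20 (adjusted p = 0.012) and at month 3 by 0.62 ± 0.21 (adjusted p = 0.048), and higher in the last CM library than at month 0 by 1.48 ± 0.28 (adjusted p = 0.0016). miR-3074-5p, whose sequence lies opposite miR-24-3p, had a mean of 12.1 CPM in the counts and 2558 CPM as deposited, with r = -0.012 between the tables, and is uncertain.
miR-3074-5p: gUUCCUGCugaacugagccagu

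Across the training libraries the members grouped partly by copy. In the counts, Pearson's r of log2(CPM + 1) was 0.90 between miR-23b-3p and miR-27b-3p and 0.70 between miR-23a-3p and miR-27a-3p, but 0.18 between miR-23a-3p and miR-23b-3p and 0.18 between miR-27a-3p and miR-27b-3p. In the deposited CPM r was 0.90 between miR-23a-3p and miR-23b-3p and -0.17 between miR-23b-3p and miR-27b-3p. miR-27b-3p had r = 0.71 with miR-27a-5p, and miR-27a-3p had r = -0.045 with miR-27a-5p, its own hairpin partner. miR-24-3p had r of 0.14 or less with each other member in the counts, against 0.75 with miR-27a-3p as deposited. Among non-members in the counts, miR-23a-3p was most like miR-24-2-5p (r = 0.78), miR-152-3p (0.72) and miR-125b-2-3p (0.71). miR-23b-3p was most like miR-26b-5p (0.74), miR-3068-3p (0.69) and miR-342-3p (0.67), and miR-27a-3p was most like miR-466n-3p (0.76), miR-322-3p (0.72) and miR-24-2-5p (0.69). miR-27b-3p was most like miR-142a-5p (0.77), miR-26b-5p (0.73) and miR-30e-3p (0.73). The highest r of miR-24-3p in the counts was 0.22, with miR-125a-5p, followed by miR-99b-5p (0.19) and miR-29b-3p (0.17). In the deposited CPM miR-24-3p was most like miR-3074-5p (0.82), miR-26a-5p (0.70) and miR-322-3p (0.69). There miR-23b-3p was most like miR-125b-2-3p, miR-99a-5p and miR-152-3p (0.85 each), so the non-members most like these 2 members depended on the table. These libraries share mice and months.

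Validation point 5 was compared with limma-trend on log2(CPM + 1) in 6 CM and 6 Ctrl libraries. It called 0 of 7 members, beside 0% of 930 miRNAs with 54 at an unadjusted p under 0.05, and edgeR on the recovered reads also called 0, with 70 of 478 at an unadjusted p under 0.05. The cohorts were scaled separately, so levels are not compared between them. miR-27a-5p ran from 753 to 6702 CPM with a median of 1005 in CM and from 474 to 2449 CPM with a median of 838 in Ctrl (log2 difference 0.72 ± 0.48, adjusted p = 0.90). miR-27b-3p ran from 31538 to 92524 CPM in CM and from 35441 to 59241 CPM in Ctrl (0.35 ± 0.29, adjusted p = 0.94). miR-24-3p had -0.11 ± 0.26, miR-23a-3p -0.41 ± 0.30, miR-23b-3p -0.32 ± 0.29, miR-27a-3p -0.25 ± 0.30 and miR-27b-5p 0.39 ± 0.31, with adjusted p-values of 0.94 or more.

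The 5 log2 ratios were also tested at validation point 5, a comparison added after the data had been seen. miR-27b-3p made up 45.3 ± 4.69% of the miR-27 3p strands in CM (39.6% to 51.8%) and 35.4 ± 4.67% in Ctrl (29.9% to 42.7%), and the groups overlapped. The miR-27a-3p to miR-27b-3p ratio was 0.28 ± 0.27 in CM and 0.87 ± 0.29 in Ctrl (SD, n = 6 each), 0.60 lower in CM (exact permutation test, two-sided p = 0.0087, adjusted p = 0.043). Leaving out 1 library at a time, the difference ran from -0.69 to -0.52, with adjusted p-values from 0.022 to 0.076 and above 0.05 without 10 of the 12 libraries (mice 2683, 2684, 2685, 2686, 2689, 2692, 2702, 2705, 2709 or 2718). The corresponding training differences were -0.038 in the counts and -0.11 in the deposited CPM. miR-23b-3p made up 32.2 ± 1.27% of the miR-23 3p strands in CM and 30.9 ± 1.26% in Ctrl (adjusted p = 0.32 for the ratio in the exact permutation test).

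The 90 shallow validation libraries held 186 to 6903 reads other than miR-5099, with a median of 870.5, and bear on the abundant strands only. miR-27a-5p had 0 reads among 98477 such reads, which allows up to 30.5 in 1000000, whereas it took 130.3 in 1000000 at point 5. miR-23b-3p had 22 reads against 755 of miR-23a-3p, or 2.83% (95% Wilson interval 1.88% to 4.25%), while at point 5 the pooled share was 31.3%. miR-27b-3p had 469 reads against 372 of miR-27a-3p, or 55.8% (52.4% to 59.1%), against 39.8% at point 5. These intervals cover counting error only. Reads of points 2, 3, 4, 6 and 7 were summed by mouse and compared between 10 CM and 6 Ctrl mice, and 4 members could be tested. miR-23a-3p was 0.83 lower in CM on the log2 scale (exact permutation test, p = 0.024, adjusted p = 0.095). Before scaling, CM mice held 7 to 38 reads and Ctrl mice 31 to 58. Per 1000000 reads other than miR-5099 these were 1917 to 8438 and 6048 to 12889. CM libraries numbered 10, 10, 9, 6 and 4 at these points and Ctrl libraries 6 at each, so the arms held unequal mixes of points. The median deposited CPM of miR-23a-3p was higher in CM at point 2 (480 against 282) and lower at points 3, 4, 6 and 7. With point 1 included, which the labels do not explain, miR-23a-3p was 0.41 lower (adjusted p = 0.73). miR-24-3p was 0.25 lower, miR-27a-3p 0.20 lower and miR-27b-3p 0.060 lower, with adjusted p-values of 0.86 or more.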

How the data were processed

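Small RNA libraries of PBMC were grouped by arm, mouse and time from the sample labels. The authors trimmed adapters with cutadapt, aligned with Bowtie and scaled with edgeR. The labels name GRCm38 and the methods mm9. The deposited training counts are whole, unnormalized mirTOP counts of mature miRNAs. The 2 deposited CPM tables hold a signal scaled by the authors, whose columns do not sum to 1000000. All of their values were whole multiples of 1 read within a tolerance of 0.01, and those reads were recovered.

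Counts were tested with edgeR 4.0.16 (quasi-likelihood, TMM, filterByExpr), with DESeq2 1.42.0 and limma 3.58.1 as alternatives and Benjamini-Hochberg adjustment over all miRNAs. edgeR on recovered reads, summed copies, month 10, slopes and point 5 ratios were added after seeing the data. Libraries of 1 mouse are paired, and deviations of its libraries correlated between -0.21 and 0.15. Validation CPM were tested with limma-trend (pseudocount 1, 1 CPM or more). Exact permutation tests were two-sided. Members and lists were chosen with earlier results of these data known. Named miRNAs are the 7 members, other products of their loci and the 3 non-members most like each 3p member. Simulated data were used to test edgeR and DESeq2 in the month 1 design and limma-trend in the validation point 5 design. Sequences are RefSeq's.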

Additional observations from a re-analysis of the deposited data

Results flagged for a closer look

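Of 140 groups of 4 to 10 libraries examined for the members, 8 held a library far from the others, and chance flags about 1 in 20. In Ctrl mice at month 2, mouse 3349 had the lowest miR-23b-3p, 619 CPM against 1328 to 1780 CPM, and the lowest miR-27a-3p, 3093 CPM against 7845 to 13481 CPM. In Ctrl mice at month 5, mouse 3340 had 2277 CPM of miR-24-3p against 6869 to 11272 CPM, and at month 3 mouse 3346 had 15.05 CPM of miR-27b-5p against 23.4 to 30.5 CPM. In CM mice at month 0, mouse 3334 had 359 CPM of miR-27a-5p against 61.5 to 110 CPM. Mouse 3338 had the highest miR-27b-5p in CM mice, 32.7 CPM at month 0 against 14.8 to 19.6 CPM, and 35.7 CPM at month 3 against 18.9 to 24.2 CPM. At validation point 5, Ctrl mouse 2720 had 78933 CPM of miR-23a-3p against 94100 to 99087 CPM.

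The change of miR-27a-5p to the last CM library differed from the change in Ctrl mice to month 6 by 3.45 on the log2 scale in a test of the difference itself. The last CM libraries were drawn at months 4 to 10, so unequal times are mixed into this difference.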

How the results depend on the processing

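Numbers of members called kept within 1.5 times of the reported number in 351 of 396 alternatives. With mouse as a block the number called at the last CM library was 1 in place of 2, and the block changed no other number of members called. It was also 1 there without a filter and without mice 3334 and 3335, and 0 with limma-trend on the deposited CPM. At month 6, 1 fit over all training libraries called 1 member, miR-27a-5p, without its share of all miRNAs given. In the difference between the last CM library and Ctrl month 6, edgeR on recovered reads called 2, beside 16.9% of all miRNAs. DESeq2 called 3 there, without its share of all miRNAs given. At Ctrl month 10, 1 was called without a filter, and shares of all miRNAs are not given for the fits without a filter. Of the 5 mouse ratios 2 were called in the deposited CPM, where 42.2% of 339 miRNAs were called in the mouse means, a share of levels and not of ratios. For slopes, 2 members were called in the deposited CPM, beside 32.7% of 339 miRNAs. Over months 0 to 4, 0 members and 0 of 331 miRNAs were called, and 0 of the 5 ratio slopes were called against 4 over all months. The cause was not tested.

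Leaving out 1 mouse at a time, members called ran from 0 to 1 at months 1 and 3 (1 without mouse 3370 or 3334, miR-27a-5p each time), 0 to 3 at the last CM library (0 without mouse 3336; 1 without 3334, 3338 or 3341; 3 without 3368), 1 to 3 at Ctrl month 10 and in the difference between the last CM library and Ctrl month 6, 0 to 1 for mouse means (miR-24-3p without mouse 3341, miR-27a-3p without 3350), 0 to 5 for slopes (0 without any Ctrl mouse) and 0 to 1 for point 5 ratios. With all mice, 27.5% of all miRNAs were called at month 1, 22% at month 3, 39% at the last CM library and 22.8% at Ctrl month 10. The share was 14.8% in the difference between the last CM library and Ctrl month 6, 41.4% for mouse means and 30.8% for slopes. Most shares with 1 mouse left out are not given here. Of 2650 alternative values, 194 had the opposite sign. Of these, 191 were called in neither fit, and the other 3 were miR-24-3p at Ctrl month 10 (-0.41 with limma-trend on the deposited CPM) and, in the deposited CPM, the CM minus Ctrl slopes of miR-23b-3p (-0.13) and of the miR-23a-3p to miR-23b-3p ratio (0.021). The G number could not be fitted at month 4. Shallow validation depth limits every member but 4.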
